A study of Mus musculus with 18 samples.

Results

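The simple epithelial keratins are the intermediate filament proteins of single-layered epithelia. The genes Krt7, Krt8, Krt18, Krt19 and Krt20 were taken by symbol from a table of reads in coding sequences, with no measured value used in the choice. They are 5 of the 20655 gene symbols in that table and 5 of its 51 keratin genes.

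The table held 18 libraries of epidermal cells, described as basal cells, from mouse embryos collected at E18.5. They were made as ribosome footprints, which are the RNA fragments that translating ribosomes protect, and as RNA. Each of 3 conditions had 3 libraries of each kind. The HrasG12V shEif2b5 group carried the oncogenic HrasG12V allele (strain FR-HrasG12V) and a short hairpin RNA against Eif2b5, which encodes a subunit of the translation initiation factor eIF2B. The HrasG12V shScram group carried the same allele and a scrambled hairpin. The WT shScram group had the scrambled hairpin in wild type mice of a Rosa26 reporter strain that carries tdTomato and EGFP (mT/mG). Hairpins reached all 3 groups by injection in utero at E9.5, and cells were released in all groups with dispase and trypsin in the presence of cycloheximide, which stalls ribosomes. Strain and genotype changed together, no wild type group received the Eif2b5 hairpin, and the genotype label of the first WT shScram footprint library reads Rosa26. What recombines the allele, the share of cells that carried a hairpin and the number of embryos in a library are not given in the sources used here. P-values therefore measure only the spread between libraries, which may be technical. The 3 comparisons below share groups, so their results are not independent of one another.

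Keratin filaments assemble only from pairs of a type I and a type II chain. Krt7 and Krt8 are type II chains, and Krt18, Krt19 and Krt20 are type I chains. Krt8 and Krt18 are the first keratins of the embryo and the usual pair of simple epithelia, Krt7 accompanies them in glandular and ductal epithelia, Krt19 is an unusually short type I keratin that lacks most of the tail domain, and Krt20 is known from gut epithelium. In skin, Krt8, Krt18 and Krt20 mark Merkel cells, the touch-sensing cells at the base of the epidermis, and Krt19 marks hair follicle stem cells. Keratinocytes of the epidermis are instead built on Krt5 and Krt14 in the basal layer and on Krt1 and Krt10 above it.

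Both type II genes and Krt18 lie in the keratin cluster of mouse chromosome 15, and the other type I genes in the cluster of chromosome 11. In the mm10 build with GENCODE M21, Krt7 occupies chr15:101411043-101430313 on the plus strand, with 9 coding exons and a coding sequence of 1371 bases. Krt8 occupies chr15:101996698-102004482 on the minus strand, with 9 coding exons and 1470 coding bases. Krt18, a type I gene inside the type II cluster, occupies chr15:102028180-102032027 on the plus strand, with 7 coding exons and 1269 coding bases, and 23697 bases separate it from Krt8. Krt19 occupies chr11:100140810-100148665 on the minus strand (6 coding exons, 1209 coding bases), and Krt20 occupies chr11:99428403-99438150 on the same strand (8 coding exons, 1293 coding bases).

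Krt7 was the 1 member whose footprints were lower at an adjusted p under 0.05 (edgeR) in both HrasG12V groups than in WT shScram. Its promoter window and those of the neighbouring partners Krt8 and Krt18 are printed here from RefSeq (build GRCm38.p6). The windows run from 250 bases before to 50 bases after the annotated start, each 5′ to 3′ on the strand of its gene. They lie at chr15:101412153-101412452 (plus strand), chr15:102004293-102004592 (minus strand) and chr15:102027966-102028265 (plus strand). The RefSeq starts of Krt7, Krt8 and Krt18 all lie downstream of the first base of the gene in GENCODE M21. Capitals mark matches to any of 5 motifs searched on both strands.
Krt7: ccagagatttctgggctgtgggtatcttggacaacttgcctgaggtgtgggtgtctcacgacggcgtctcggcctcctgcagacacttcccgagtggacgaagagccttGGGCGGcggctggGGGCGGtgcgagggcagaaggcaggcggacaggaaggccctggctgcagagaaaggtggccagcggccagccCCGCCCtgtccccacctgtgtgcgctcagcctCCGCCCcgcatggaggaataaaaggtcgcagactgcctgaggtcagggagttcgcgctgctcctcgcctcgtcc
Krt8: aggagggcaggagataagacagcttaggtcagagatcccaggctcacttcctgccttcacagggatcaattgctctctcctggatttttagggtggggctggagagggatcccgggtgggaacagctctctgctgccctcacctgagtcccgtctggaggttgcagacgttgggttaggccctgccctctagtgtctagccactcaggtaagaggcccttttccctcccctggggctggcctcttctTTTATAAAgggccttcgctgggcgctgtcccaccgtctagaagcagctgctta
Krt18: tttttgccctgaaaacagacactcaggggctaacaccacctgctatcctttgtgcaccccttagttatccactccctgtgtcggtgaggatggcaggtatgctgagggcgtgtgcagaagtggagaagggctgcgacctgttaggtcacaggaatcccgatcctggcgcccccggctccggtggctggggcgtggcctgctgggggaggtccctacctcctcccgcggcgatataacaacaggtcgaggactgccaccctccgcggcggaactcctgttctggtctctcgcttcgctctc
The motif of AP-1 factors was searched as TGANTCA. That of ETS factors was searched as CCGGAAG. The TATA box was searched as TATAAA, and the CCAAT box (37.4% of windows) under its own letters. The GC box bound by SP factors was searched as GGGCGG. Krt7 held 4 GGGCGG matches, a motif present in 35.7% of 32851 promoter windows of the same length. Krt8 held 2 overlapping TATAAA matches, 1 on each strand, at positions -3 and -1 and so across the RefSeq start. Krt20 held 1 at position -29 from the start. The TATAAA motif was present in 13.6% of windows. The Krt18 window held none of the 5. No AP-1 motif (7.81% of windows) and no ETS motif (8.86% of windows) was found in the 4 windows of Krt7, Krt8, Krt18 and Krt20, which says only that these letters are not in these windows.

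Total counts were 3319175 to 4933298 per footprint library and 1771365 to 5505386 per RNA library. All 10 basal keratinocyte markers were detected in every group. Their summed footprint level was 14362 to 16214 CPM (read counts scaled to a common library size) in HrasG12V shEif2b5, 11247 to 15462 in HrasG12V shScram and 9574 to 13720 in WT shScram. The 8 spinous layer markers, led by Krt1 and Krt10, summed to more, 23074 to 69908, 31263 to 38409 and 22113 to 43687 CPM in the same order of groups. The libraries described as basal cells therefore also held transcripts of the spinous layer. Eif2b5, the target of the hairpin, had 78.4 to 95.3 footprint CPM in HrasG12V shEif2b5, against 91.7 to 102 CPM in HrasG12V shScram, where the groups overlap (adjusted p = 0.994). Its RNA was 128 to 143 CPM in HrasG12V shEif2b5, against 126, 387 and 144 CPM in HrasG12V shScram, so the second HrasG12V shScram RNA library stood apart for Eif2b5 and was also the shallowest library. The coding level of Eif2b5 therefore did not separate the libraries labelled shEif2b5 from those labelled shScram.

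The members were minor keratins in every library. Together they made up 0.0641% to 0.118% of all keratin footprints in HrasG12V shEif2b5, 0.0966% to 0.12% in HrasG12V shScram and 0.154% to 0.224% in WT shScram. In RNA the shares were 0.0732% to 0.0871%, 0.0551% to 0.0798% and 0.0615% to 0.0761% in the same order, with all groups overlapping. These shares also move with the abundant keratins in the denominator, whose sum was 80377 CPM or more in 2 HrasG12V shEif2b5 footprint libraries and 33678 CPM in the other. Per kilobase of coding sequence, the footprint levels in WT shScram were 25.1 ± 2.13 CPM per kb for Krt7, 15.5 ± 2.91 for Krt8, 4.04 ± 1.42 for Krt18, 3.75 ± 0.894 for Krt19 and 2.71 ± 1 for Krt20 (SD, n = 3 for these and all other group means below). Krt7 stood above Krt8 and Krt8 above the rest by more than these SDs, whereas Krt18, Krt19 and Krt20 lay within them. In HrasG12V shEif2b5 the order of the means was Krt19 (15.1 ± 13.8 CPM per kb), Krt7 (12.7 ± 1.49) and Krt8 (11.8 ± 3.83), which did not differ beyond their SDs. In HrasG12V shScram it was Krt7 (13 ± 1.69), Krt8 (9.08 ± 2.84) and Krt19 (6.87 ± 1.59), where Krt7 and Krt8 lay within their SDs.

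Coding sequence shared with other genes limits the levels, most of all those of Krt8. Of the Krt8 coding stretches of 28 bases, about the length of a footprint, 45.5% also occur in other annotated transcripts, mostly in the pseudogene Krt8-ps. The shares were 16.5% for Krt18, 2.68% for Krt7, 2.12% for Krt19 and 0% for Krt20. Krt19 shared most with Krt17 and Krt14, at 791 and 631 CPM per kb in WT shScram footprints, against 3.75 for Krt19. Krt7 shared most with Krt73 and Krt79. How reads with several matches were counted is not given in the sources used here. Over unique coding sequence alone, the mean WT shScram footprint level was 28.9 CPM per unique kb for Krt8 and 26.3 for Krt7, so the order of these genes depends on that treatment. The strand setting of the counting is likewise not given: 28 coding bases of Krt8 overlap the long noncoding RNA Gm36026 on the opposite strand, and Krt7 overlaps the antisense gene Gm671 outside its coding sequence.

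**Figure D1:**
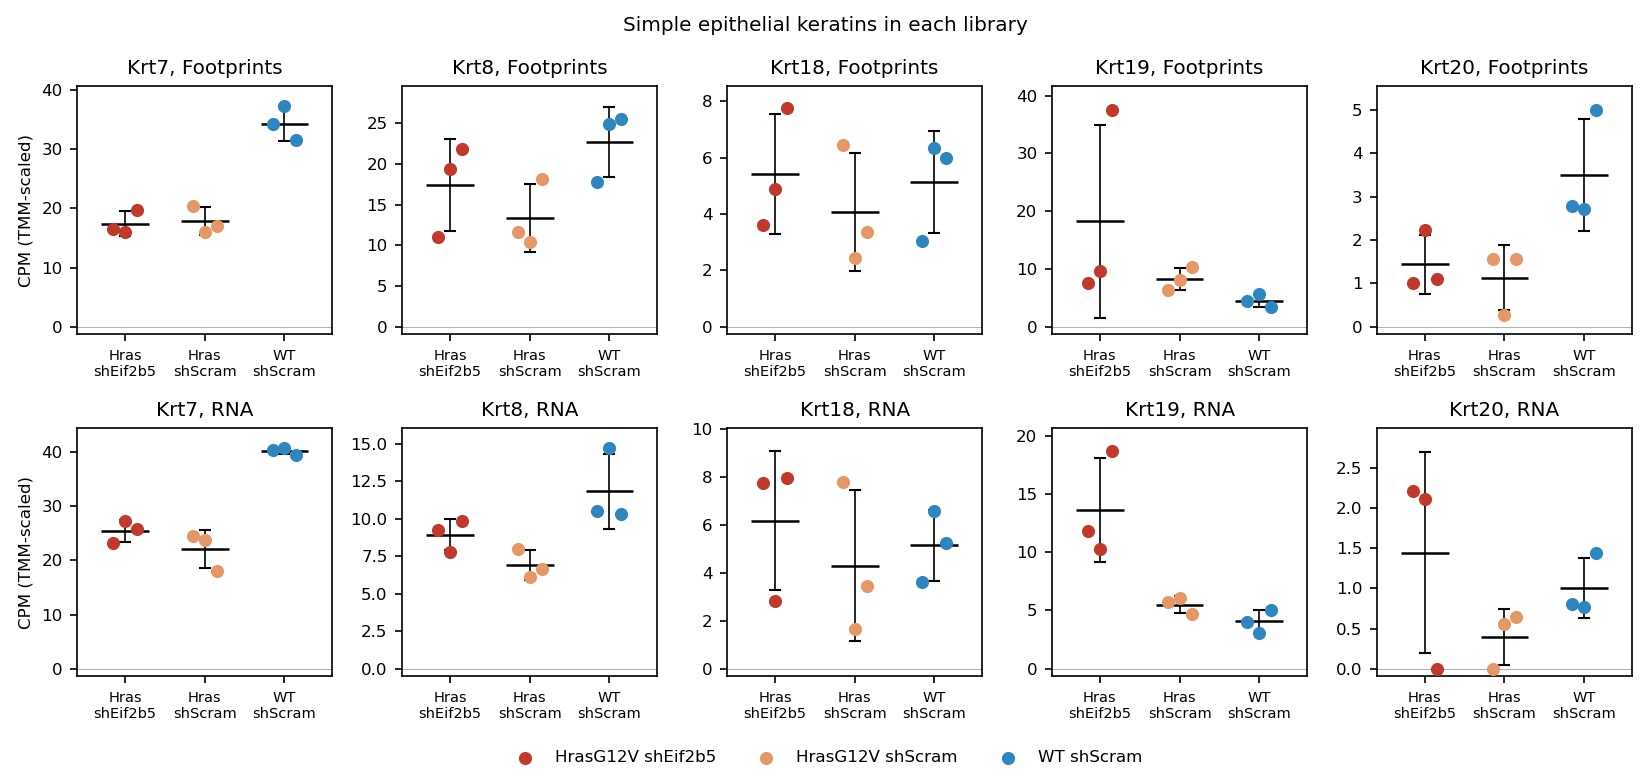
Level of each simple keratin (CPM scaled by TMM factors, vertical axis) in each library of HrasG12V shEif2b5, HrasG12V shScram and WT shScram, with footprints in the upper row and RNA in the lower. Points are libraries, horizontal lines are group means and bars are SDs (n = 3); the 3 WT shScram libraries lie above all HrasG12V libraries for Krt7 in both rows, and Krt19 has 1 HrasG12V shEif2b5 footprint library at 37.5 CPM.

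Krt7, a type II chain of ductal epithelia, was lower in HrasG12V shScram than in WT shScram epidermis. Its footprints were 20.5, 16.1 and 17 CPM in the HrasG12V shScram libraries, against 34.2, 37.3 and 31.5 CPM in the WT shScram libraries. Its RNA was 24.5, 23.8 and 18.1 CPM in HrasG12V shScram, against 40.3, 40.7 and 39.5 CPM in WT shScram. The groups did not overlap in either kind of library. Footprints fell by 0.94 on the log2 scale (SE 0.17, adjusted p = 0.00609, edgeR quasi-likelihood test), which is 0.521 times the WT shScram level, and RNA fell by 0.87 (SE 0.18, adjusted p = 0.0101). Krt7 was the 48th of 11448 genes by p in footprints, and it was the 1 member of 5 called in footprints and the 1 of 4 tested in RNA. Over all genes tested, 1.7% were called in footprints (0.472% lower) and 7.7% in RNA (3.05% lower); the RNA calls were 854 genes of 11096, and 2455 of 11289 without the second HrasG12V shScram RNA library. The RNA call was lost without the third HrasG12V shScram RNA library (log2 -0.73, adjusted p = 0.0546) and without HrasG12V shScram RNA libraries 1 and 3 (log2 -0.75, adjusted p = 0.259); without the second library it held (log2 -0.90, adjusted p = 0.00301). In these bulk libraries, fewer cells that express a gene and less RNA per cell cannot be told apart.

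Krt8 did not pass the test in this comparison. Its footprints were 11.6, 10.4 and 18.1 CPM in HrasG12V shScram, against 17.8, 24.9 and 25.5 CPM in WT shScram, with 1 library of each group overlapping. Its RNA was 7.99, 6.09 and 6.67 CPM in HrasG12V shScram, against 10.5, 14.7 and 10.3 CPM in WT shScram, without overlap. The log2 differences were -0.76 in footprints (95% interval -1.31 to -0.21, adjusted p = 0.179) and -0.72 in RNA (95% interval -1.30 to -0.15, adjusted p = 0.107). Both intervals exclude 0 before adjustment, as do those of 14.3% of genes in footprints and 25.3% in RNA.

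Among the type I members, Krt18, the usual partner of Krt8, had footprints of 6.45, 2.45 and 3.36 CPM in HrasG12V shScram, against 3.06, 6.34 and 6 CPM in WT shScram. The groups overlapped, and the log2 difference was -0.32 (95% interval -1.19 to 0.54, adjusted p = 0.789). Its RNA was 7.8, 1.66 and 3.44 CPM in HrasG12V shScram, against 3.63, 6.58 and 5.23 CPM in WT shScram (log2 -0.11, 95% interval -1.10 to 0.88). With 53 to 63 footprint counts summed over a group in this comparison, changes within those intervals could not be resolved.

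Krt19 footprints were 6.45, 8.18 and 10.3 CPM in HrasG12V shScram, against 4.45, 5.66 and 3.5 CPM in WT shScram. The 3 HrasG12V shScram libraries were above the 3 WT shScram libraries, but the difference did not pass the test (log2 0.86, 95% interval -0.87 to 2.59, adjusted p = 0.68). Its RNA was 5.71, 6.09 and 4.73 CPM in HrasG12V shScram, against 4.03, 3.1 and 5.05 CPM in WT shScram, with overlap (log2 0.36, adjusted p = 0.555).

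Krt20, the keratin of Merkel cells and gut, was near the limit of detection. Its footprints were 1.56, 0.273 and 1.57 CPM in HrasG12V shScram, against 2.78, 2.72 and 5 CPM in WT shScram, from 15 and 42 counts in all. The groups did not overlap, and the log2 difference of -1.55 (95% interval -2.72 to -0.38) gave an adjusted p of 0.199. The ratio of the summed counts, each over its scaled total, was 0.34 (95% interval 0.175 to 0.625, counting error only). RNA held 4 counts in HrasG12V shScram and 12 in WT shScram, too few to be tested. Across the members, groups did not overlap for 3 of 5 in footprints (Krt7, Krt19 and Krt20) and 2 of the 4 tested in RNA (Krt7 and Krt8), against 20.3% and 26.1% of all genes tested.

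The Eif2b5 hairpin was compared with the scrambled hairpin within HrasG12V epidermis, and here Krt19 RNA rose. It was 11.8, 10.3 and 18.7 CPM in HrasG12V shEif2b5, against 5.71, 6.09 and 4.73 CPM in HrasG12V shScram, with no overlap (1 of the 4 members tested, against 28.6% of genes tested). The log2 difference was 1.30 (SE 0.32, adjusted p = 0.0168), a 2.46-fold higher level. It was the 1 member of 4 tested that was called, where 13% of all genes were called (5.23% higher), or 1444 of 11096 genes, against 3152 of 11289 without the second HrasG12V shScram RNA library. Without the third HrasG12V shEif2b5 RNA library, the highest, the difference was 1.02 (adjusted p = 0.117). Leaving out the first HrasG12V shScram RNA library gave 1.36 (adjusted p = 0.0532), leaving out library 3 gave 1.19 (adjusted p = 0.0653), and leaving out both gave 1.13 (adjusted p = 0.403). Without the second, the library that stood apart for Eif2b5, it was 1.35 (adjusted p = 0.00731).

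Krt19 footprints did not pass the same comparison. They were 7.63, 9.57 and 37.5 CPM in HrasG12V shEif2b5, against 6.45, 8.18 and 10.3 CPM in HrasG12V shScram. The third HrasG12V shEif2b5 library was far above the other 8 footprint libraries, and the groups overlapped. The log2 difference was 1.12 (95% interval -0.34 to 2.59, adjusted p = 0.994), and 0.05 without that library. The same library also held the highest footprint level of the wound keratin Krt6a, 130 CPM against 27.1 and 68.6 CPM in the other HrasG12V shEif2b5 libraries, whereas Krt16 was at 545 CPM there and 559 CPM in the second library. The part of other cells or of tissue state in that library was not tested.

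No other member was called between the hairpins. Krt7 footprints were 16.5, 16 and 19.8 CPM in HrasG12V shEif2b5 and stayed within the HrasG12V shScram range given above apart from 1 library at 16 CPM (log2 -0.04, 95% interval -0.41 to 0.33). Its RNA, 23.2, 27.2 and 25.8 CPM in HrasG12V shEif2b5, differed by 0.21 (95% interval -0.19 to 0.61, adjusted p = 0.48). Krt8 had footprints of 11, 19.4 and 21.8 CPM (log2 0.37, 95% interval -0.19 to 0.92) and RNA of 9.22, 7.78 and 9.83 CPM in HrasG12V shEif2b5 (log2 0.33, 95% interval -0.27 to 0.94). Krt18 had footprints of 3.61, 4.9 and 7.77 CPM (log2 0.38, 95% interval -0.47 to 1.23) and RNA of 7.75, 2.83 and 7.96 CPM in HrasG12V shEif2b5 (log2 0.34, 95% interval -0.67 to 1.35). Both genes overlapped the HrasG12V shScram group in both kinds of library.

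Krt20 had footprints of 1, 2.23 and 1.11 CPM in HrasG12V shEif2b5 (log2 0.28, 95% interval -1.02 to 1.59). Its RNA counts were 6, 6 and 0 in HrasG12V shEif2b5, against 0, 1 and 3 in HrasG12V shScram. A count of 0 allows up to 1.4 CPM in that HrasG12V shEif2b5 library and 0.571 CPM in that HrasG12V shScram library (3 counts, counting error only). In footprints, edgeR called 0 of 11448 genes between the hairpins (0%), 519 had an unadjusted p under 0.05, limma-voom called 0 and DESeq2 called 1. Of the 5 members, 0 were below 0.05 before adjustment, against 4.53% of genes, and 0 had groups without overlap, against 11.1%. Without the first HrasG12V shEif2b5 footprint library, edgeR called 31 of 11606 genes and none of the members. That library differed most from the others of its group (chi-square per degree of freedom 17.1 and 18.1, against 5.19 between those).

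Against WT shScram, HrasG12V shEif2b5 epidermis had lower Krt7 and higher Krt19. Krt7 footprints fell by 0.98 on the log2 scale (SE 0.17, adjusted p = 0.00566), to 17.4 ± 2.04 CPM in HrasG12V shEif2b5 against 34.4 ± 2.92 CPM in WT shScram. It was the 28th of 11448 genes by p and the 1 member called, where 0.97% of genes were called (0.21% lower). Krt7 RNA was 25.4 ± 2.01 CPM in HrasG12V shEif2b5 and 40.2 ± 0.616 CPM in WT shScram, without overlap, but its log2 difference of -0.66 (SE 0.18) had an adjusted p of 0.185, where 0.324% of genes were called. The 3 HrasG12V shEif2b5 libraries of each kind lay below the 3 WT shScram libraries.

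Krt19 RNA averaged 13.6 ± 4.51 CPM in HrasG12V shEif2b5 and 4.06 ± 0.975 CPM in WT shScram, again without overlap. It rose by 1.66 on the log2 scale (SE 0.33, adjusted p = 0.0372), the 31st of 11096 genes by p, where 0.225% of genes were called higher. Leaving out any 1 of the 6 libraries compared ended the call: without HrasG12V shEif2b5 library 1, 2 or 3 the difference was 1.76 (adjusted p = 0.12), 1.85 (0.0741) and 1.39 (0.319), and without WT shScram library 1, 2 or 3 it was 1.65 (0.164), 1.53 (0.214) and 1.90 (0.0798). It was also lost with limma-voom (log2 1.57, adjusted p = 0.0646). Krt19 footprints were 3.96-fold higher (log2 1.98, 95% interval 0.38 to 3.59, adjusted p = 0.255), and 0.91 on the log2 scale without the third HrasG12V shEif2b5 library.

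The remaining members were not called against WT shScram. The log2 differences of Krt8 were -0.40 in footprints (95% interval -0.93 to 0.14) and -0.39 in RNA (95% interval -0.97 to 0.19), where the RNA groups did not overlap. Those of Krt18 were 0.06 (95% interval -0.77 to 0.89) and 0.23 (95% interval -0.78 to 1.25). Krt20 footprints, 20 counts in HrasG12V shEif2b5 and 42 in WT shScram, differed by -1.27 (95% interval -2.38 to -0.15, adjusted p = 0.28), with a ratio of summed counts of 0.409 (95% interval 0.228 to 0.713) and no overlap. Groups did not overlap for 3 of 5 members in footprints and 3 of the 4 tested in RNA, against 16.1% and 16% of all genes tested.

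**Figure D2:**
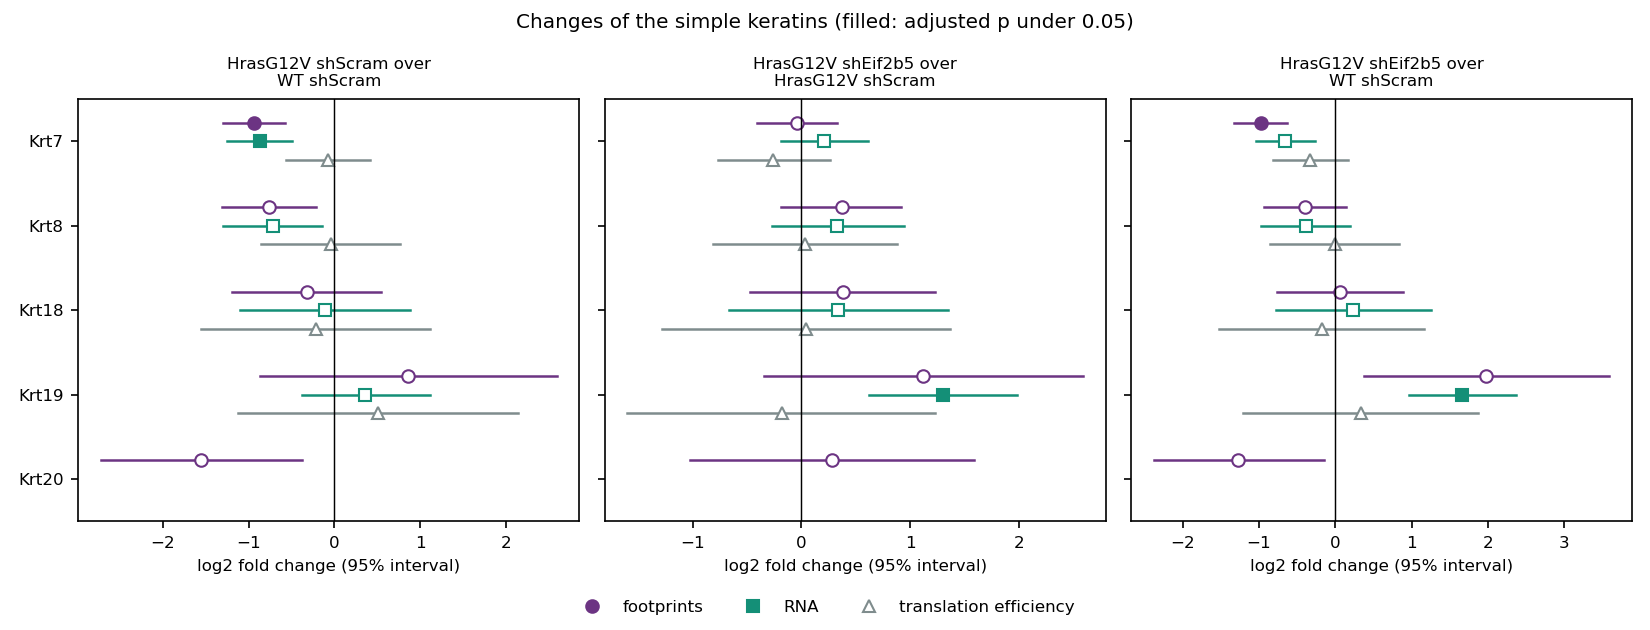
Log2 fold change (horizontal axis, lines are 95% intervals) of each simple keratin in footprints, RNA and translation efficiency, in the 3 comparisons; Krt20 was tested in footprints only. Filled symbols passed an adjusted p of 0.05: Krt7 in both kinds of library for HrasG12V shScram over WT shScram, Krt19 RNA for HrasG12V shEif2b5 over HrasG12V shScram, and Krt7 footprints and Krt19 RNA for HrasG12V shEif2b5 over WT shScram.

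Translation efficiency, the change in footprints beyond the change in RNA, was tested as an interaction over all 18 libraries. None of the 4 members tested was called in any comparison by edgeR, 0 had an unadjusted p under 0.05 (against 15.8%, 19.1% and 5.87% of genes in the order of the 3 comparisons above), and limma-voom called none; DESeq2 called none of the 4, 3 and 0 members to which it gave an adjusted p, in the same order. Over all genes, 1.17% were called for HrasG12V shScram against WT shScram, 2.11% between the hairpins, and 0% for HrasG12V shEif2b5 against WT shScram, where 634 of 10793 genes had an unadjusted p under 0.05, DESeq2 called 5 and limma-voom 0. Without the second HrasG12V shScram RNA library the calls were 693 genes for HrasG12V shScram against WT shScram (126 with it) and 1350 between the hairpins (228 with it). For Krt7 the interaction was -0.07 (95% interval -0.56 to 0.42) in HrasG12V shScram against WT shScram and -0.33 (95% interval -0.82 to 0.17) in HrasG12V shEif2b5 against WT shScram. Its intervals were the narrowest of the members, and those of Krt19 reached from -1.12 to 2.14, from -1.60 to 1.23 and from -1.21 to 1.87. The ratio of footprint to RNA CPM for Krt8 was 1.94 in HrasG12V shEif2b5, 1.93 in HrasG12V shScram and 1.92 in WT shScram, above that of 78%, 83.1% and 79% of genes. Krt7 had ratios of 0.686, 0.806 and 0.856 in the same order, below the medians over genes of 0.999, 0.975 and 0.994. The Krt8 ratios carry the limit of shared coding sequence given above, whose part was not tested.

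The balance between the chain types was also computed, as a description. Krt7 and Krt8 summed per kilobase were 1.53 ± 0.658 times the sum of Krt18, Krt19 and Krt20 in HrasG12V shEif2b5 footprints, 2.02 ± 0.0761 times in HrasG12V shScram and 3.92 ± 0.514 times in WT shScram. In RNA the ratios were 1.51 ± 0.463, 2.6 ± 0.524 and 4.64 ± 0.784 in the same order. The lowest WT shScram library (3.51 in footprints and 3.8 in RNA) was above the highest HrasG12V library (2.11 and 3.17). The third HrasG12V shEif2b5 footprint library, high in Krt19, had a ratio of 0.768, and the other 2 had 1.96 and 1.84. The ratio counts only these 5 genes, with the limit of shared coding sequence on Krt8, and leaves out the abundant epidermal partners of both types. It is built from the levels given above and is no separate result. The type I sums of HrasG12V shScram and WT shScram lay within their SDs, at 11 ± 1.82 and 10.5 ± 1.96 CPM per kb in footprints and 8.26 ± 2.27 and 8.19 ± 1.3 in RNA. The type II sums were 22.1 ± 3.04 and 40.5 ± 3.54 in footprints and 20.9 ± 2.87 and 37.3 ± 2.06 in RNA.

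The 46 other keratin genes of the table give the setting of these values. In footprints of HrasG12V shScram against WT shScram, 32 of them were tested, 3 were higher (Krt17, Krt73 and Krt75) and 0 lower, with a median log2 difference of 0.18, against -0.76 over the 5 members and -0.01 over all genes. In RNA, 3 of the 32 tested were higher (Krt6b, Krt16 and Krt75) and 1 was lower, the basal layer keratin Krt15 (log2 -0.98, adjusted p = 0.00401), with a median of -0.45, close to the -0.42 of the 4 members tested. Between the hairpins, 9 of 32 rose in RNA and 0 fell, and all 4 stress keratins, which wounded epidermis induces, were among those called. Krt6b RNA was 131, 147 and 132 CPM in HrasG12V shEif2b5, against 47.4, 42.1 and 20.7 CPM in HrasG12V shScram (log2 1.91, adjusted p = 0.000512). Against WT shScram, 3 of 32 rose in RNA in HrasG12V shEif2b5 (Krt6a, Krt6b and Krt16) and 0 fell. Over all genes, 1.7%, 7.7%, 13% and 0.324% were called in these comparisons, in the order given.

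**Figure D3:**
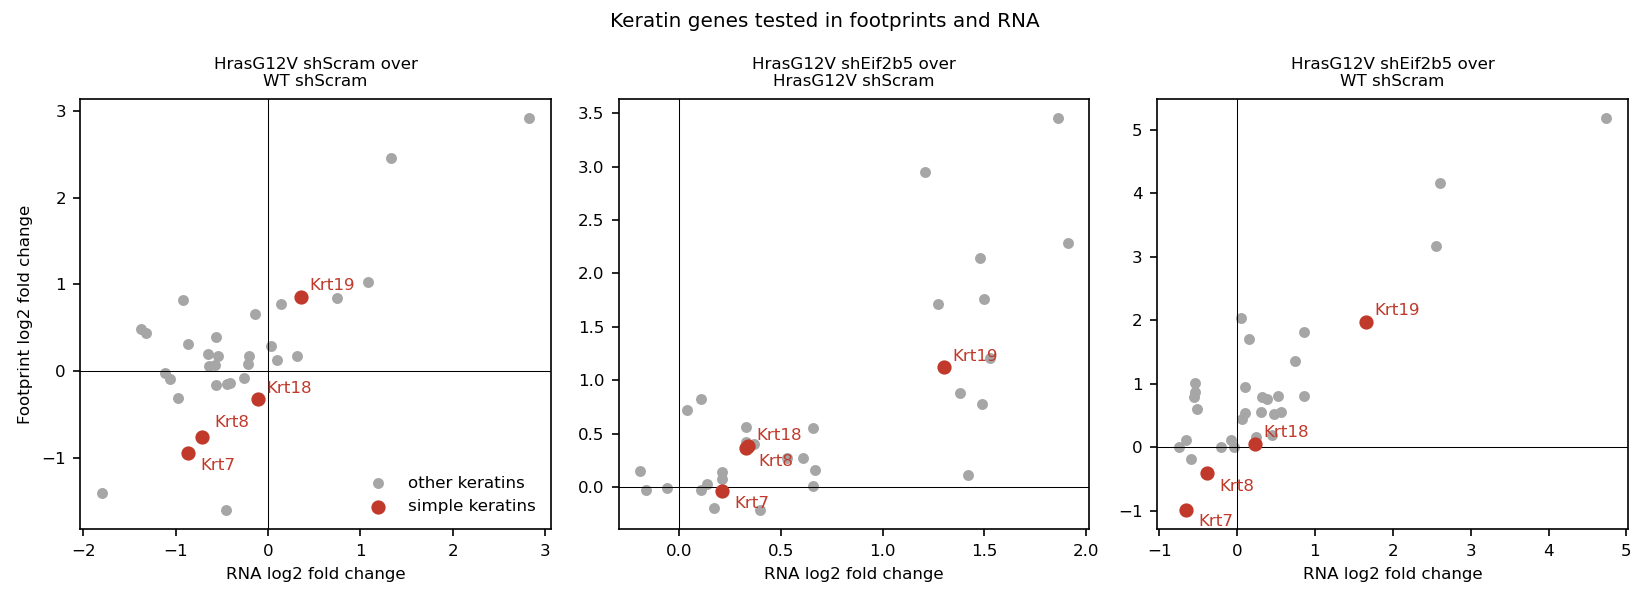
Log2 fold change in footprints (vertical axis) against RNA (horizontal axis) for the keratin genes tested in both kinds, 1 panel for each comparison; red points are simple keratins and grey points are other keratins. Krt7 (log2 -0.87 in RNA and -0.94 in footprints, HrasG12V shScram over WT shScram) lies at the lower left, and Krt19 lies toward the upper right in each panel.

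Other groups of genes that bear on simple epithelia and keratin filaments were described as well. Of 16 further genes of simple epithelia, 13 were tested in footprints and 10 in RNA. In HrasG12V shScram epidermis, relative to WT shScram, Rab25, a small GTPase of epithelial membrane traffic, rose in footprints (log2 0.68, adjusted p = 0.0379) and the adhesion molecule Epcam rose in RNA (log2 0.50, adjusted p = 0.0384), the 1 gene called in each kind. In footprints of that comparison 10 of the 13 lay above 0, and the largest difference was log2 1.80. Groups did not overlap for 6 of the 13, 5 of them higher, against 20.3% of all genes tested. Over all genes in that comparison, 1.7% were called in footprints and 7.7% in RNA. No gene of this list was called in the other 2 comparisons in either kind (smallest adjusted p = 0.0665, Rab25 footprints in HrasG12V shEif2b5 against WT shScram). Of 15 plakins, linkers and chaperones that bind keratin filaments, 0 were called in footprints in any comparison. In RNA 13 of the 15 lay below 0 in HrasG12V shScram against WT shScram, with a median of -0.44. The giant linker Eppk1 fell in that comparison (log2 -0.62, adjusted p = 0.0155), where 7.7% of all genes were called. Plec and Tchp rose between the hairpins (log2 0.84 and 1.61, adjusted p = 0.0231 and 0.0217), where 13% of all genes were called.

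Among AP-1 and ETS factors, transcription factors downstream of RAS that in human cells are known to act on KRT18 through its first intron, 3 of 11 rose and 1 fell in footprints of HrasG12V shScram against WT shScram. Etv4 rose most by p (log2 1.88, adjusted p = 3.35e-06), with Etv5 (1.36, 3.49e-05) and Junb (0.94, 0.00203), and Fosl2 fell (-0.62, 0.0303). The same 4 genes were called in the same directions in HrasG12V shEif2b5 against WT shScram, where Etv4 was at 1.57. Between the hairpins none of the 11 was called in footprints and Jund rose in RNA (log2 0.74, adjusted p = 0.0316), where 13% of all genes were called. Over all genes, 1.7% were called in footprints of HrasG12V shScram against WT shScram and 0.97% in those of HrasG12V shEif2b5 against WT shScram.

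Merkel cell markers had their highest summed footprints in WT shScram, and this rested on Penk, a neuropeptide gene. All 22 markers other than the members were in the table, 9 were tested in footprints and 7 in RNA, and Vip was at 0 in every library. Their summed footprint level was 423 to 457 CPM in HrasG12V shEif2b5, 413 to 441 CPM in HrasG12V shScram and 484 to 580 CPM in WT shScram, and their summed RNA was 218 to 265, 161 to 240 and 258 to 268 CPM in the same order. Without Penk, the footprint sums of the other 21 markers were 172 to 203, 158 to 188 and 172 to 188 CPM and the RNA sums 99.7 to 123, 83.3 to 121 and 102 to 112 CPM in the same order, with all groups overlapping, a calculation added after the values were seen. Penk was the 1 marker called and fell in HrasG12V shScram in footprints (log2 -0.47, adjusted p = 0.0453) and RNA (-0.73, 0.0184) and in HrasG12V shEif2b5 footprints against WT shScram (-0.50, 0.0494). Over all genes, 1.7%, 7.7% and 0.97% were called in the same order. The median log2 difference of the tested markers in HrasG12V shScram against WT shScram was -0.44 in footprints (7 of 9 below 0) and -0.64 in RNA (6 of 7 below 0). In HrasG12V shEif2b5 against WT shScram it was -0.42 (8 of 9 below 0) and -0.29 (4 of 7 below 0). Of the Merkel cell keratins, Krt8 and Krt20 had their highest mean footprints in WT shScram. Krt18 averaged 5.43 ± 2.13 CPM in HrasG12V shEif2b5, 4.09 ± 2.1 CPM in HrasG12V shScram and 5.13 ± 1.8 CPM in WT shScram. These Krt18 means lay within their SDs of one another.

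Atoh1, the transcription factor that Merkel cells need to form, was chosen for description after its values were seen. Its footprints were 3.41, 3.34 and 3.78 CPM in HrasG12V shEif2b5, 2.45, 2.73 and 4.03 CPM in HrasG12V shScram, against 8.07, 7.02 and 6.75 CPM in WT shScram. All 6 HrasG12V libraries were below the 3 WT shScram libraries, with log2 differences of -1.23 (adjusted p = 0.0643) for HrasG12V shScram and -1.04 (adjusted p = 0.119) for HrasG12V shEif2b5. In these comparisons footprint groups did not overlap for 20.3% and 16.1% of all genes tested. Among the 9 Merkel cell markers tested they did not overlap for 3 and 2. In RNA the Atoh1 groups overlapped for HrasG12V shEif2b5 and HrasG12V shScram against WT shScram (adjusted p = 0.95 and 0.429). Sox2, a second Merkel cell factor, had RNA of 1.84, 2.47 and 1.4 CPM in HrasG12V shEif2b5, 2.66, 2.77 and 2.8 CPM in HrasG12V shScram, against 6.05, 5.81 and 4.51 CPM in WT shScram, again with no overlap and an adjusted p of 0.269 and 0.133. Its footprints, 1, 2.45 and 1.11 CPM in HrasG12V shEif2b5, 0.668, 1.09 and 2.01 CPM in HrasG12V shScram, against 1.95, 3.62 and 5 CPM in WT shScram, did overlap (adjusted p = 0.296 and 0.218). Sox2 in HrasG12V shScram against WT shScram was likewise added after its values were seen. RNA groups did not overlap for 26.1% of all genes tested in that comparison and 16% in HrasG12V shEif2b5 against WT shScram. Among the 7 Merkel cell markers tested in RNA they did not overlap for 3 in each. Whether the number of Merkel cells in the libraries has a part in the values of Krt8 or Krt20 was not tested.

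Hair follicle markers, 14 of 14 tested, also included genes called lower in footprints of HrasG12V shScram against WT shScram. These were 3, namely Foxi3, Ptch1 and Shh, where 0.472% of all genes were called lower. Summed hair follicle footprints were 826 to 982 CPM in HrasG12V shEif2b5, 796 to 866 CPM in HrasG12V shScram and 1024 to 1139 CPM in WT shScram. Neither HrasG12V group overlapped WT shScram in these sums. In RNA the hair follicle sums were 1954 to 2320, 1540 to 1830 and 2195 to 2398 CPM in the same order, where HrasG12V shEif2b5 overlapped WT shScram. Periderm markers summed to 1837 to 2119, 1483 to 1906 and 906 to 1391 footprint CPM in the same order, a sum that is mostly Krt17, and to 1926 to 2608, 1355 to 1548 and 1231 to 2067 CPM in RNA, where HrasG12V shScram lay within the WT shScram range. The part of these cells in the Krt7 and Krt19 values was not tested.

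The genes whose levels ran most like Krt7, Krt8 and Krt19 over the 18 libraries were ranked by the Pearson correlation of log2 CPM, each library kind centred on its own mean, among genes with a mean of at least 10 CPM in both kinds. Points in this ranking share libraries, depth and scaling, and the group differences above enter every value. For Krt7 they were Rgma (0.92), Phyhip (0.91), Pdlim4 (0.88), Glul (0.86) and Rapgefl1 (0.86). Rgma, a membrane-anchored guidance molecule, had footprints of 43.4, 39.2 and 40.9 CPM in HrasG12V shEif2b5, 39.4, 41.4 and 40.3 CPM in HrasG12V shScram, against 60.4, 62 and 56.2 CPM in WT shScram. Like Krt7 it was lower in all 6 HrasG12V libraries than in the 3 WT shScram libraries. It was chosen for its likeness to Krt7, so this follows from the ranking and is no separate result.

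For Krt19 the list held 3 of the 4 stress keratins: Krt6a (0.87), Krt16 (0.82) and Krt6b (0.79), with Smox (0.86), a polyamine oxidase, and Uaca (0.81). Krt6a RNA was 25.1, 50.2 and 66 CPM in HrasG12V shEif2b5, 14.1, 19.4 and 17.9 CPM in HrasG12V shScram, against 10.5, 6.97 and 6.85 CPM in WT shScram. For Krt8 the closest genes were Sphk2 (0.90), Itpkc (0.87), Thap11 (0.83), Upf1 (0.80) and Hspa1b (0.80). Krt8 and Krt18, whose proteins pair, had a correlation of 0.55 with each other, and the type II genes Krt7 and Krt8 one of 0.68. Krt18 had 3 to 41 counts in a library, against 43 to 219 for Krt7. These depths and the group differences enter both values, so which pair is closer cannot be told.

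**Figure D4:**
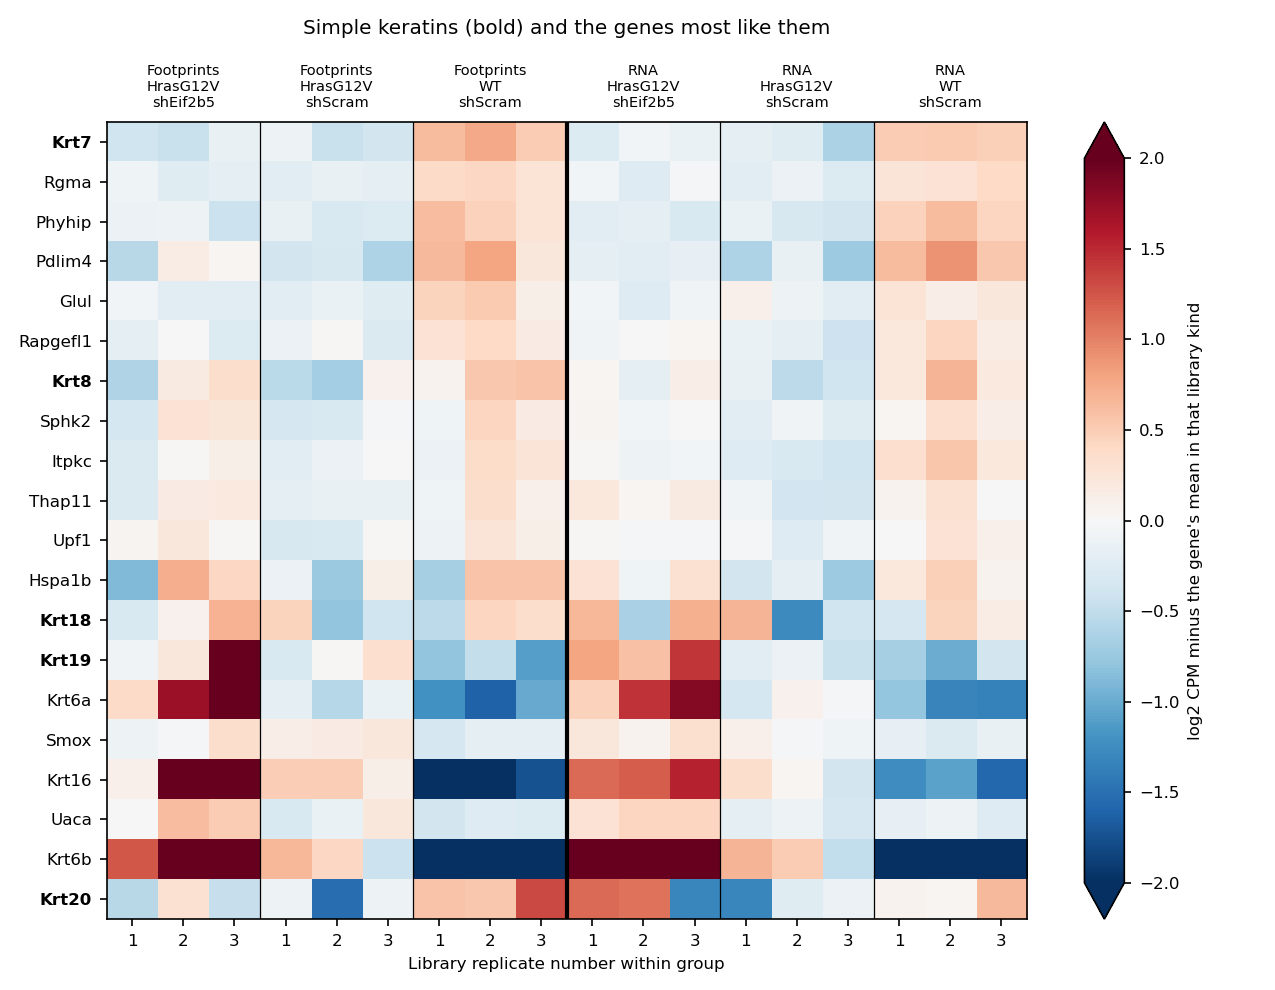
Log2 CPM of each simple keratin (bold), with the 5 genes most like Krt7, Krt8 and Krt19 under each of these, as the difference from the gene's mean over the 9 libraries of that kind (colour; differences past 2 in either direction take the end colour), with 1 column for each library. Krt7 and the genes under it are high in WT shScram in both kinds, and Krt19, Krt6a, Krt16 and Krt6b are on average highest in HrasG12V shEif2b5; Krt20 was not ranked because RNA did not pass the filter.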

How the data were processed

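Ribosome footprints and RNA of mouse E18.5 epidermal cells, described as basal cells, were measured in 18 libraries, 3 in each of 6 groups, grouped by the labels. The deposited values are raw counts of reads per gene in coding sequences, made by the authors with Bowtie, TopHat2 and HTSeq on mm10, per the submitters' processing notes; versions, strand and multiple-match settings are not given in the sources used here. No column of the count table was left out. The table holds 20655 symbols, of which 27 are date-like names that a spreadsheet made, and 95.7% match a coding sequence in GENCODE M21.

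Counts were tested with edgeR 4.0.16 in R 4.3.3 (TMM factors, filterByExpr with a minimum count of 10 and total of 15, robust quasi-likelihood fit). One fit was made over the 9 libraries of each kind, and an interaction of condition and kind over all 18 for translation efficiency. The numbers tested were 11448 genes in footprints, 11096 in RNA and 10793 for translation efficiency; all 5 members passed the filter in footprints and 4 in RNA. P-values were adjusted by Benjamini-Hochberg over all genes tested, with 0.05 as the threshold for a call. CPM are counts over the TMM-scaled library total, scaled to a common size. The biological coefficient of variation was 0.14 in footprints and 0.162 in RNA, and all replicate pairs differed by more than sampling noise (chi-square per degree of freedom 2.92 to 18.1). Intervals on summed counts and limits for a count of 0 cover counting error only, at a confidence level of 0.95.

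Alternatives were DESeq2 1.42.0 (size factors or its Wald test), upper-quartile factors, limma-voom (limma 3.58.1), other filters, the 20 most abundant genes left out, offsets for coding GC and length, a replicate block, fits of 2 conditions, and libraries left out. The edgeR fit was tested on simulated data. The members, gene lists and alternatives were chosen with earlier results of these data known. Genes named are the members, up to 4 called genes with the smallest p per list and comparison (up to 2 where none was called), and the 5 genes most like each member, of which those of Krt18 are not reported here; Atoh1, and Sox2 outside HrasG12V shEif2b5 against WT shScram, were added after their values were seen.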

Additional observations from a re-analysis of the deposited data

How the results depend on the processing

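Krt7 footprints were called in 16 of 16 alternatives both for HrasG12V shScram against WT shScram (log2 -1.05 to -0.88, adjusted p 0.00126 to 0.0422) and for HrasG12V shEif2b5 against WT shScram (-1.08 to -0.91, 0.000653 to 0.0489). The 3 RNA calls were less stable. With a mean of at least 10 CPM required, Krt19 was not tested, so 0 members were called in RNA between the hairpins and in HrasG12V shEif2b5 against WT shScram. With limma-voom 0 were called in the second of these, and without HrasG12V shScram RNA libraries 1 and 3 (the lone library assumed to vary like the other groups) 0 were called between the hairpins and in HrasG12V shScram against WT shScram. Leaving out each library in turn gave 0 to 1 called members in each of the 3 RNA comparisons. The other 153 recomputed counts of called members kept the value found with all libraries.

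No label used here says that the replicate numbers pair the samples. Same-numbered libraries correlated between conditions at -0.18 to 0.35 in footprints and -0.4 to 0.38 in RNA. Libraries of different numbers were not compared in this way, so these values cannot decide whether a number marks a shared litter or day. Footprint and RNA libraries of the same number and condition correlated at 0 to 0.35, with 6 of 9 pairs over 0.1, and a block for each such pair changed no translation efficiency call of a member. With the replicate block 1 member was still called wherever 1 was called without it, and it changed no call of a member. Over all genes it moved the calls for HrasG12V shScram against WT shScram from 195 to 219 in footprints and from 854 to 647 in RNA. Between the hairpins it moved translation efficiency calls from 228 to 330.

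Sign changes occurred only in differences that were not called. The translation efficiency of Krt18 between the hairpins was -0.11 with the replicate block and -1.48 without HrasG12V shScram RNA libraries 1 and 3, and that of Krt8 was -0.03 and -0.18. Without those libraries, HrasG12V shScram against WT shScram gave 1.29 for Krt18 and 0.16 for Krt8. Under offsets for the GC content and length of coding sequence, translation efficiency of Krt19 between the hairpins was 0.03, Krt7 RNA between the hairpins -0.01, and Krt8 translation efficiency in HrasG12V shEif2b5 against WT shScram 0.04 (0.00 with no filter); the cause was not tested.

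Leaving out each library in turn, translation efficiency between the hairpins ranged over -0.71 to 0.54 for Krt18, -1.25 to 0.19 for Krt19 and -0.15 to 0.32 for Krt8. In HrasG12V shEif2b5 against WT shScram it ranged over -0.55 to 0.05, -0.75 to 0.70 and -0.20 to 0.23 for the same genes. In HrasG12V shScram against WT shScram it ranged over -0.71 to 0.54 for Krt18, -0.33 to 0.10 for Krt8 and -0.21 to 0.04 for Krt7. Likewise Krt18 ranged over -0.29 to 0.28 (footprints, HrasG12V shEif2b5 against WT shScram) and -0.85 to 0.14 (RNA, HrasG12V shScram against WT shScram), and between the hairpins footprints ranged over -0.15 to 0.56 for Krt20 and -0.14 to 0.07 for Krt7.

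Counts over all genes moved more: without HrasG12V shScram RNA libraries 1 and 3 the RNA calls were 17 between the hairpins (1444 with all libraries) and 47 in HrasG12V shScram against WT shScram (854), and without library 2 they were 3152 and 2455. Translation efficiency calls ranged over 2 to 1350 (228) and 8 to 693 (126) in these comparisons, between the same left-out libraries, and 0 to 18 (0) for HrasG12V shEif2b5 against WT shScram. Over the alternatives, footprint calls ranged over 73 to 559 (195) and 37 to 407 (111) for HrasG12V shScram and HrasG12V shEif2b5 against WT shScram and 0 to 31 (0) between the hairpins, and RNA calls over 12 to 124 (36) for HrasG12V shEif2b5 against WT shScram. Depth limits Krt18 and Krt20, with at most 75 and 42 summed footprint counts in a group.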
